A study of Saccharomyces cerevisiae with 49 samples.

Results

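The mating pheromone pathway of budding yeast was followed, in 10 of its genes, through the cell cycle after release from 2 kinds of G1 arrest. The genes were taken by gene symbol for their place in the pathway: GPA1 (YHR005C), STE4 (YOR212W) and STE18 (YJR086W) encode the G protein, STE5 (YDR103W) the scaffold and FUS3 (YBL016W) the MAP kinase. STE12 (YHR084W), DIG1 (YPL049C) and KAR4 (YCL055W) encode nuclear regulators, and SST2 (YLR452C) and MSG5 (YNL053W) encode negative regulators. All 10 were found with 1 probe each, among 6228 genes and unnamed probes.

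A single culture of BY4741 bar1- cells gave the alpha-factor course. This strain lacks the protease that degrades the pheromone. Its cells were held for 3 h in 1 ug/ml alpha factor, filtered, rinsed with water and moved to fresh YPD with a supplement that the labels leave unnamed. The cdc28 courses came from cultures B and E, labelled as biological replicates, of BY4741 cells with a temperature-sensitive cdc28 allele (cdc28-13 in the series text), a mutation in the cyclin-dependent kinase. These were held for 3 h at 37 °C and cooled, and their labels name no pheromone. The alpha-factor course has 17 arrays and ends at 150 min. Cultures B and E have 16 arrays each and end at 225 and 160 min. Each array set synchronized cells against unarrested mid-log cells of the same strain, and the values below are log2 ratios of the first over the second after the median of each array was set to 0. A ratio of 0 is therefore the level in cycling cells of that strain, and a difference between courses also carries any difference between the mid-log samples. In bulk RNA, fewer cells with a transcript and less of it in each cell cannot be told apart. Strain, arrest and temperature regime differ together between the alpha-factor and cdc28 courses, so their parts cannot be told apart.

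Haploid yeast sense the pheromone of the other mating type through a receptor coupled to this G protein. Pheromone frees the Ste4-Ste18 dimer from the alpha subunit Gpa1, and the dimer recruits Ste5, which assembles the kinase cascade ending in Fus3. Fus3 relieves the repression of the transcription factor Ste12 by Dig1, and Ste12 targets include mating genes and several genes of the pathway itself. Sst2 speeds the return of Gpa1 to its inactive form, and Msg5 is a phosphatase that acts on Fus3.

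Each array held between 4189 and 6110 values, and precision is limited by how few arrays there are. The array of culture B at 135 min held the fewest values and had the widest spread (SD 0.92, against at most 0.78 on the others), and values on it are named as such below. BAR1, the gene missing from the alpha-factor strain, had a value on 0 alpha-factor arrays, against 16 arrays of culture B and 16 of culture E. Because each strain was compared with itself, these ratios cannot show mating type. The names of the arrays of culture E follow a different series from those of the other courses, so array series and culture cannot be told apart there. Within culture E the array numbers form runs: 10 arrays are numbered 6 to 12, the 5 arrays at 20, 50, 80, 110 and 140 min are numbered 33 to 36, and the 0 min array is number 76.

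**Figure D1:**
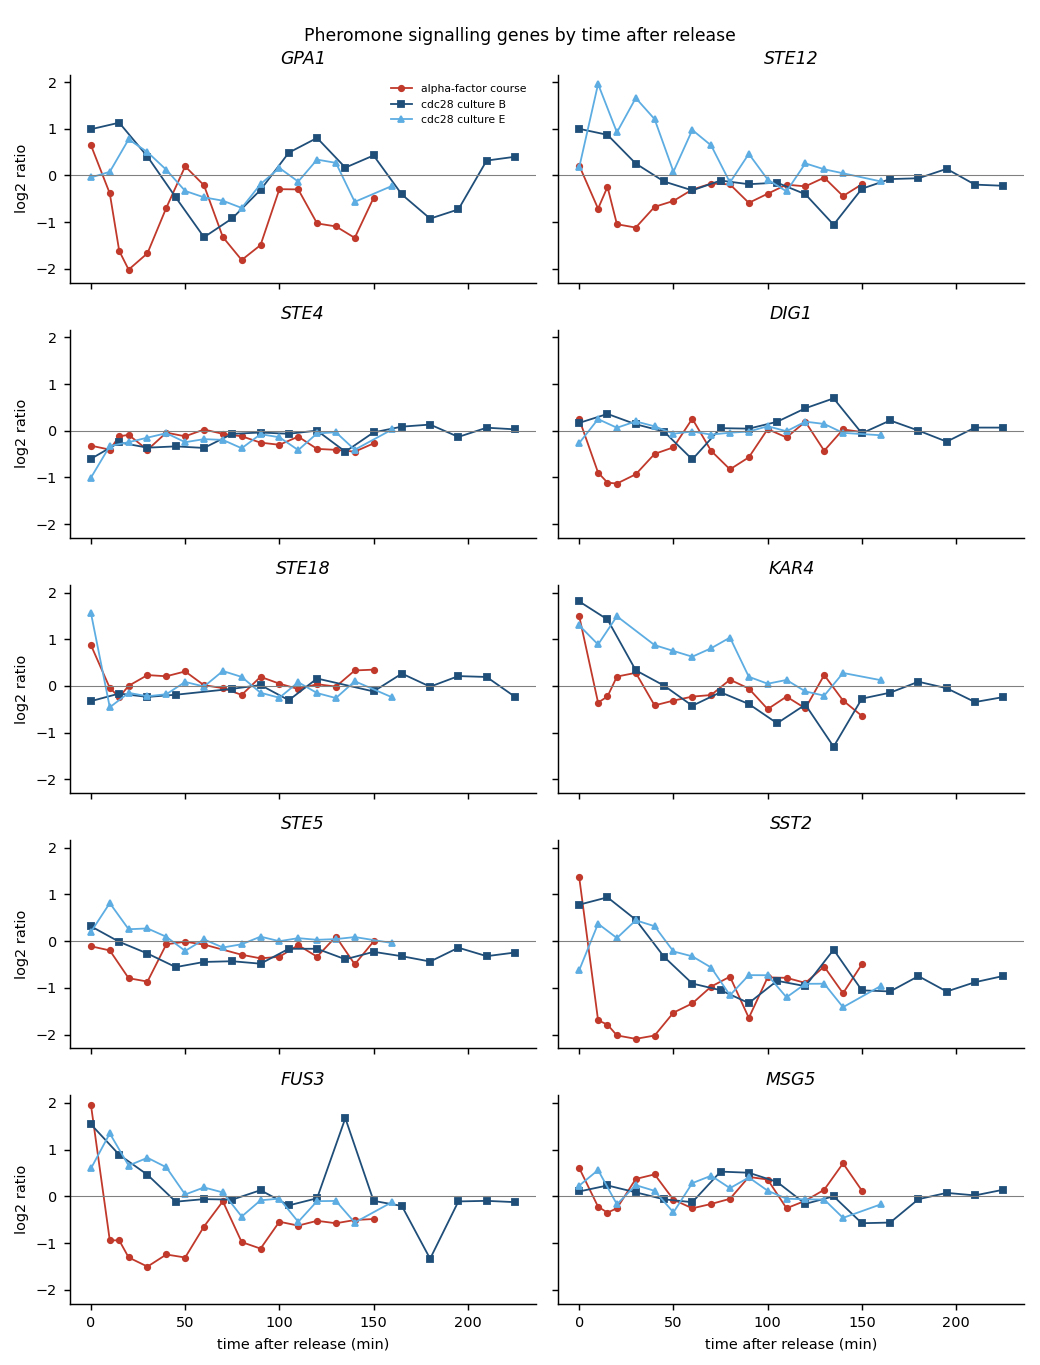
Log2 ratio of synchronized over mid-log cells (vertical axis) against time after release in min (horizontal axis) for the 10 genes; each point is 1 array of the alpha-factor course (red circles), cdc28 culture B (dark blue squares) or cdc28 culture E (light blue triangles). GPA1 swings with the cycle, SST2 and FUS3 are high at 0 min and low by 10 min in the alpha-factor course, and STE4 stays within a narrow range after 0 min.

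The first question was which of these transcripts follow the cell cycle. GPA1 did in all 3 courses. DIG1 and MSG5 did in the alpha-factor course and in culture B, while the other 7 genes passed the test in no course. The test fitted a cosine and a sine at the period of each course beside a linear trend, by limma over all genes, with a call at a Benjamini-Hochberg adjusted p under 0.05. The period was 54 min in the alpha-factor course, so that its arrays spanned 2.78 cycles. The cdc28 periods were 123 min for culture B, with 1.83 cycles, and 92 min for culture E, with 1.74 cycles. The culture E period was the least well set: the median gain in R2 of the marker genes at the kept period was 0.52 there, against 0.70 in the alpha-factor course and 0.72 in culture B. At the period of culture B, 9.06% of all genes and 0 of the 10 were called in culture E, so its calls and peaks below hold for the 92 min period. Of all genes tested, 27.7% were called in the alpha-factor course, 14.1% in culture B and 3.20% in culture E, beside 3, 3 and 1 of the 10 genes. The first of these counts lies close to its background. The median amplitude of the 10 genes was 0.30, 0.25 and 0.19, against 0.18, 0.17 and 0.14 over all genes. With 1 culture per course, these p-values measure the scatter of arrays about a curve.

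GPA1, the alpha subunit, reached its alpha-factor lows of -2.02 at 20 min, -1.81 at 80 min and -1.34 at 140 min, with values of 0.65 at 0 min, 0.20 at 50 min and -0.29 at 100 min between them. In culture B the lows were -1.32 at 60 min and -0.92 at 180 min, and the high values were 1.13 at 15 min and 0.80 at 120 min. Culture E had its high value of 0.77 at 20 min and its low of -0.70 at 80 min, a narrower swing. Both are on arrays of the run numbered 33 to 36. Outside that run the GPA1 values of culture E lay between -0.54 at 70 min and 0.50 at 30 min. The fitted amplitude was 0.98 ± 0.11 in the alpha-factor course (SE, 17 arrays; limma adjusted p = 6.02e-05), 0.94 ± 0.11 in culture B (SE, 16 arrays; adjusted p = 0.000176) and 0.46 ± 0.09 in culture E (SE, 16 arrays; adjusted p = 0.0253). At the period of culture B the culture E adjusted p was 0.117, and leaving out the array at 30, 40, 60, 70, 80, 100, 120 or 130 min also ended that call.

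The GPA1 peak fell at 52.3 ± 0.9 min of the 54 min alpha-factor period and at 1.8 ± 2.4 min of the 123 min period of culture B (SE). In both courses this is near the mean peak of a list of M/G1 genes, which are transcribed as cells leave mitosis, at 3.9 min in the alpha-factor course and 9.0 min in culture B. In culture E the GPA1 peak was at 23.7 ± 2.9 min and the M/G1 mean at 20.1 min, from 5 periodic genes of that list. The M/G1 list helped to set the periods, and GPA1 is no member of it. For orientation, G1/S genes and histone genes had their mean peaks at 12.1 and 22.3 min in the alpha-factor course, at 34.1 and 53.5 min in culture B and at 44.5 and 60.4 min in culture E.

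DIG1, which encodes the repressor of Ste12, had its peaks near those of GPA1. In the alpha-factor course it was lowest at 20 min, at -1.13, and low again at 80 min, at -0.83, with high values of 0.26 at 60 min and 0.19 at 120 min. In culture B it was lowest at 60 min, at -0.62, and highest on the 135 min array, at 0.69, after 0.48 at 120 min. In culture E all 16 values lay between -0.26 and 0.25. The amplitude was 0.43 ± 0.10 in the alpha-factor course, with its peak at 53.3 min (SE, 17 arrays; limma adjusted p = 0.0130), and 0.32 ± 0.08 in culture B, with its peak at 5.4 min (SE, 16 arrays; adjusted p = 0.0343). In culture E it was 0.13 ± 0.05, which did not pass (adjusted p = 0.418). With a period 10% shorter the alpha-factor DIG1 call was lost (adjusted p = 0.246). The DIG1 call in culture B was lost without the array at 15, 45, 60, 90, 105, 120, 135 or 195 min. It was also lost in 4 of 11 other settings, with limma adjusted p up to 0.139. These were the shared array number as a random block and a period 10% shorter. The others were a term for arrays up to 20 min in place of the trend, and leaving those arrays out.

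MSG5, the phosphatase gene, was high at another point of the cycle. In the alpha-factor course it had 0.47 at 40 min, 0.42 at 90 min and 0.71 at 140 min, against -0.26 at 60 min and -0.26 at 110 min. In culture B it had 0.53 at 75 min and 0.51 at 90 min, against -0.58 at 150 min. Late in the second cycle of culture B it had 0.07, 0.02 and 0.14 at 195, 210 and 225 min, so no second high was seen. The amplitude was 0.35 ± 0.08 in the alpha-factor course, with its peak at 38.2 min (SE, 17 arrays; limma adjusted p = 0.0149), and 0.35 ± 0.07 in culture B, with its peak at 91.6 min (SE, 16 arrays; adjusted p = 0.0133). A list of G2/M genes, which cells transcribe before and during mitosis, had its mean peak at 39.6 min and 94.6 min in these courses. In culture E MSG5 had an amplitude of 0.20 ± 0.08 and did not pass (adjusted p = 0.465). With a period 10% longer the alpha-factor MSG5 call was lost (adjusted p = 0.281), and the call in culture B was lost without the array at 150 or 165 min. The culture B call was also lost with a term for arrays up to 20 min in place of the trend (limma adjusted p = 0.126).

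The other genes of the pathway came from lists. Of the other signalling genes 7 of 16 were periodic in the alpha-factor course, and 9 of 20 for culture B and 2 of 20 for culture E. STE6, the exporter of the a-factor pheromone, was chosen after its values were seen and was among them in all 3, with amplitudes of 1.24, 1.17 and 0.46. Of the mating genes, which act in agglutination and fusion, 3 of 12, 1 of 14 and 0 of 13 were periodic. The shares over all genes were 27.7%, 14.1% and 3.20%, and the counts of the mating genes lie below them.

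**Figure D2:**
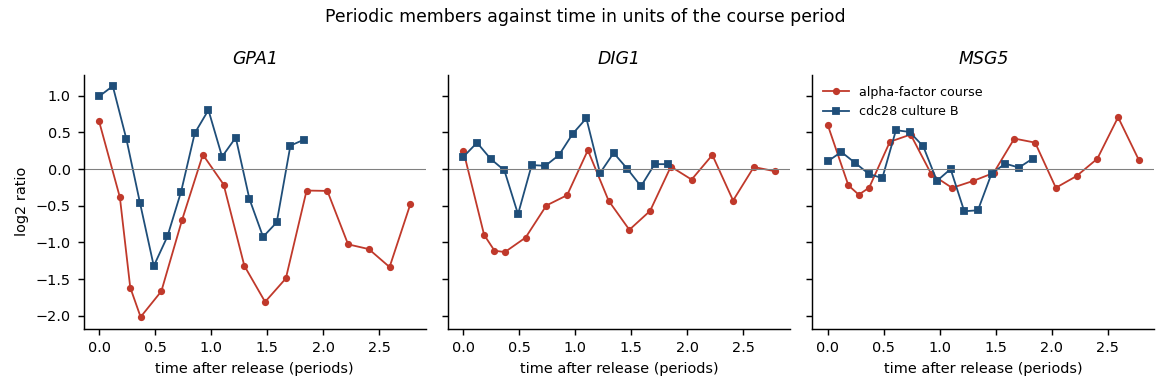
Log2 ratio (vertical axis) of GPA1, DIG1 and MSG5 against time after release divided by the period of the course (horizontal axis, in periods) in the alpha-factor course (red circles) and cdc28 culture B (dark blue squares), 1 array per point. GPA1 and DIG1 are low near the middle of each period, and MSG5 is high in its second part. The second period of culture B is an exception for DIG1, where no clear low is seen, and for MSG5, where no clear high is seen.

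The call on KAR4 depended on the arrays used. Kar4 works with Ste12 on genes of nuclear fusion. KAR4 had an alpha-factor amplitude of 0.08 over all arrays. With the 4 arrays up to 20 min left out, its amplitude was 0.29 ± 0.08, with a peak at 23.4 min (SE, 13 arrays; limma adjusted p = 0.0403). FUS3 and SST2 had amplitudes of 0.48 and 0.49 in the alpha-factor course (limma adjusted p = 0.301 and 0.310), larger than that of DIG1 but with wider errors. Without the 0 min array, FUS3 and KAR4 joined the 3 called genes. The share of all genes called without that array is not given here, and with all arrays it was 27.7%.

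**Figure D3:**
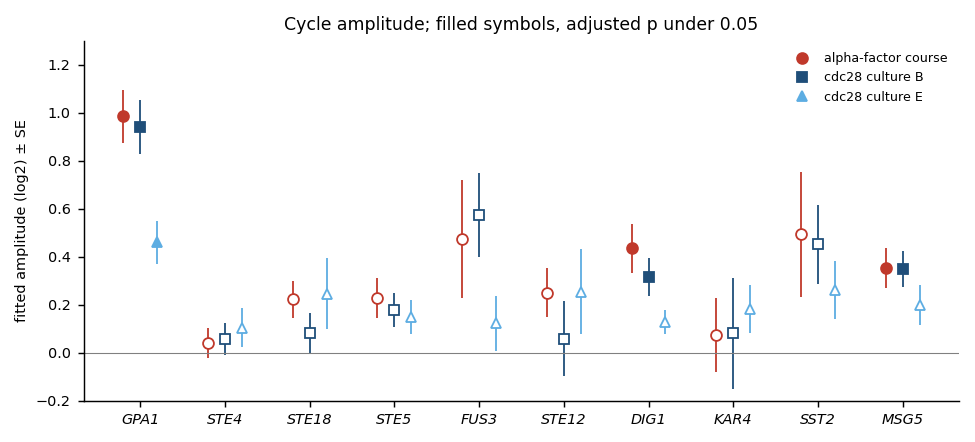
Fitted cycle amplitude on the log2 scale (vertical axis, ± SE) for the 10 genes (horizontal axis) in the alpha-factor course (red circles, 17 arrays), cdc28 culture B (dark blue squares, 16 arrays) and cdc28 culture E (light blue triangles, 16 arrays); filled symbols passed the test. GPA1 is filled in all 3 courses, and DIG1 and MSG5 in the alpha-factor course and culture B.

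The second question was how the pathway stood in the arrest itself, at 0 min. Several of these genes were above their mid-log level in both arrests, and none of the 10 differed between them past the threshold. FUS3 was 1.96 in the alpha-factor arrest, against 1.54 in culture B and 0.60 in culture E, so all 3 cultures were above mid-log cells. KAR4 was 1.49 in the alpha-factor arrest, against 1.81 and 1.29 in cultures B and E. The KAR4 ratios of the cdc28 cultures lie on either side of the alpha-factor one.

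SST2, the GTPase-activating protein for Gpa1, was 1.36 in the alpha-factor arrest, against 0.78 in culture B and -0.62 in culture E. In the alpha-factor arrest the value is above both, and the cdc28 cultures lie on opposite sides of 0. STE18, the gamma subunit, was 0.87 in the alpha-factor arrest, against -0.33 in culture B and 1.56 in culture E, so the cdc28 cultures lie on either side. STE4, the beta subunit, was -0.32 in the alpha-factor arrest, against -0.60 in culture B and -1.01 in culture E, below mid-log cells in all 3. GPA1 was 0.65, against 0.99 and -0.04 in cultures B and E, and the cultures again overlap.

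STE12 was 0.21 in the alpha-factor arrest, against 1.00 in culture B and 0.17 in culture E. MSG5 was 0.61, against 0.10 and 0.23, and the alpha-factor value is the highest of the 3. DIG1 was 0.25, against 0.17 and -0.26, and STE5 was -0.11, against 0.32 and 0.20. The differences between the arrests were 0.29 for DIG1 and -0.37 for STE5, neither past the threshold.

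The test used the 15 arrays at times that all courses share. Each alpha-factor time has 1 array, which was assumed to vary like the pairs of cdc28 arrays. At 0 min 0 of 10 genes passed, against 3.71% of all genes, and 1 of 10 had an unadjusted p under 0.05. That gene was SST2, with a difference of 1.28 ± 0.53 (SE; 1 against 2 arrays; limma adjusted p = 0.190). The median difference of the 10 genes was 0.28, against 0.01 over all genes. With the culture as a block 0 of 10 passed, where 13.9% of all genes did. With 2 cultures in one arrest and 1 in the other, these data do not show that the arrests are alike.

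**Figure D4:**
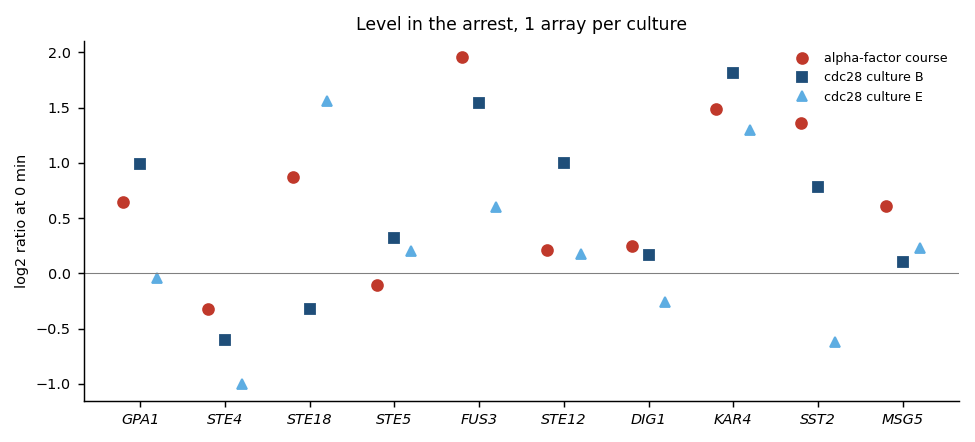
Log2 ratio at 0 min (vertical axis) of the 10 genes (horizontal axis); each symbol is 1 array of the alpha-factor course (red circles), cdc28 culture B (dark blue squares) or cdc28 culture E (light blue triangles). FUS3 and KAR4 are above 0 in all 3 cultures and STE4 is below 0 in all 3.

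At 0 min the mating genes were higher in the alpha-factor arrest for 10 of 13 tested and lower for 0, against 2.49% of all genes higher. PRM1, needed for the membranes of mating cells to fuse, had a difference of 4.90 ± 0.43 (SE; limma adjusted p = 0.00126), and the adhesin genes FIG2 and AGA1 had differences of 4.84 and 4.78. AGA1 was 5.37 in the alpha-factor arrest, against 1.47 in culture B and -0.29 in culture E. Of 18 tested genes on the list of other signalling genes, 4 were higher and 0 lower, among them AFR1, by 2.89, ASG7, by 2.62, and the phosphatase gene PTP2, by 1.95. Whether the lists differ from the 10 genes was not tested.

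The third question was what happened on release. In the first 10 min after alpha factor was removed, 5 of the 10 genes were lower by 1 or more on the log2 scale, against 4.04% of 5985 genes. SST2 was -1.70 at 10 min, against 1.36 at 0 min. FUS3 was -0.94 at 10 min, against 1.96 at 0 min, and KAR4 was -0.36, against 1.49. DIG1 was -0.90, against 0.25, and GPA1 was -0.38, against 0.65. Each is 1 array against 1 array, with no test. STE4 and STE5 were within 0.09 of their 0 min values.

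In the cdc28 cultures the counts over the first interval were lower. Over the first 15 min of culture B, 0 of 10 genes were lower by 1 or more, against 2.29% of all genes, and SST2 was 0.94 at 15 min, against 0.78 at 0 min. Over the first 10 min of culture E, 1 of 10 was, against 11.5% of all genes. That gene was STE18, at -0.46 at 10 min, against 1.56 at 0 min. FUS3 was 1.35 at 10 min in culture E, against 0.60 at 0 min. The 0 min and 10 min arrays of culture E belong to different runs of array numbers.

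Against the rest of its own course, the alpha-factor 0 min array was higher for 4 of the 10 genes and lower for 0, against 4.14% of all genes higher. This setting, 0 min alone against all later arrays in the joint fit described below, was chosen after the values were seen. FUS3 was higher by 2.68 ± 0.53, SST2 by 2.52 ± 0.62, KAR4 by 1.99 ± 0.50 and STE18 by 0.78 ± 0.20 (SE; limma adjusted p = 0.000703, 0.00702, 0.00947 and 0.0105). In culture B KAR4 alone of the 10 passed, higher by 2.10 ± 0.51 (adjusted p = 0.0274), against 1.07% of all genes in either direction. In culture E STE18 was higher by 1.67 ± 0.20 and STE4 was lower than on the later arrays, with an estimate of -0.78 ± 0.19 (adjusted p = 1.79e-07 and 0.00232), where 28.7% of all genes passed. The culture E 0 min array is the only one numbered 76, so arrest and run of array numbers cannot be told apart there. The difference between the alpha-factor and cdc28 courses in this 0 min term passed for 0 of the 10 genes, against 5.63% of all genes. Of the 10, 3 had an unadjusted p under 0.05.

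At 30 min the kinase gene FUS3 and the regulator gene SST2 were lower in the alpha-factor course than in the cdc28 cultures. FUS3 was -1.50 in the alpha-factor course, against 0.46 in culture B and 0.83 in culture E, a difference of -2.15 ± 0.40 (SE; 1 against 2 arrays; limma adjusted p = 0.0313). SST2 was -2.09 in the alpha-factor course, against 0.46 and 0.45, a difference of -2.55 ± 0.53 (adjusted p = 0.0446). These were the 2 of 10 genes that passed, both lower, against 0.950% of all genes lower and 2.32% in either direction.

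GPA1 was -1.66 in the alpha-factor course, against 0.41 in culture B and 0.50 in culture E, a difference of -2.12 ± 0.48. Its limma adjusted p was 0.0611, and 0.0394 with the culture as a block, where 3 of 10 genes passed, against 7.34% of all genes. STE12 was -1.12 in the alpha-factor course, against 0.26 and 1.66, and did not pass (limma adjusted p = 0.157). The cultures stand at different points of the cycle at 30 min: the alpha-factor course was near the middle of its 54 min period, and culture B in the first part of its 123 min period. Without either of the cdc28 arrays at 30 min, 0 of 10 genes passed, and with quantile normalization both calls were lost (adjusted p = 0.0602).

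Of the mating genes at 30 min, 1 of 11 was higher and 2 lower, against 1.37% of all genes higher. CIK1, a kinesin-associated protein, was higher by 1.72. AGA2 and FUS1, an agglutinin and a fusion gene, were lower than in the cdc28 cultures, with differences of -2.91 and -2.20. Of the other signalling genes 1 of 15 passed: MFA1, which encodes the a-factor pheromone, was lower, with a difference of -3.52. At 60, 90 and 120 min 0 of the 10 genes passed, against 0.431%, 0.0388% and 0.0358% of all genes. At these times 0, 2 and 1 of the 10 had an unadjusted limma p under 0.05. Within the cdc28 cultures, 30 min against 0 min, 0 of 10 passed, against 5.32% of all genes, and 2 had an unadjusted p under 0.05. KAR4 had a difference of -1.22 ± 0.49 (limma adjusted p = 0.194), in which culture E gave no value at 30 min, and STE4 one of 0.55 ± 0.24 (adjusted p = 0.219).

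In the cdc28 cultures KAR4 and STE12 had high values after the arrest array. For STE12 in culture E the high values came only after it. KAR4 in culture B had 1.81 in the arrest, then 1.42 at 15 min and 0.33 at 30 min, and -0.42 by 60 min. In culture E it stayed between 0.63 and 1.49 up to 80 min and was 0.20 at 90 min. STE12 in culture B was 1.00 at 0 min and 0.87 at 15 min. In culture E, STE12 had 0.17 at 0 min and then 1.96 at 10 min, 0.92 at 20 min, 1.66 at 30 min and 1.21 at 40 min. It was 0.08 at 50 min, back at 0.98 at 60 min and 0.64 at 70 min, then -0.15 at 80 min and 0.46 at 90 min. The values at 20, 50 and 80 min, each below both of its neighbours in time, are on arrays of the run numbered 33 to 36. In the alpha-factor course STE12 was -0.71 at 10 min and -1.04 at 20 min.

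A joint fit over all 49 arrays gave each course its own cycle, its level after 20 min and an early term, the level up to 20 min over the later one. Its p-values take the arrays as independent and measure their scatter within courses. Where the arrests are compared, a single alpha-factor culture stands against cultures B and E, so the spread between cultures is not measured. In culture B the early term was higher for KAR4, by 2.20 ± 0.35, and for STE12, by 1.38 ± 0.38 (SE; limma adjusted p = 7.04e-05 and 0.0152), 2 of 10 genes against 6.51% of all genes higher. In culture E it was higher for KAR4 alone of the 10, by 1.10 ± 0.31 (adjusted p = 0.00566), against 15.2% of all genes higher. This call was lost with a linear trend, with 10 min or before as early, where STE4 was called in its place, and with 0 min alone. With the run of array numbers as a covariate, a setting chosen after the values were seen, STE12 passed as well, at 0.89 (adjusted p = 0.0243). In the alpha-factor course it passed for DIG1 alone, which was lower than later, with an estimate of -0.52 ± 0.16 (adjusted p = 0.0482), against 5.44% of all genes in either direction. That early term averages the high 0 min array with the low arrays at 10, 15 and 20 min, and with 0 min alone as the early array the DIG1 value was 0.30 (adjusted p = 0.629). The DIG1 call was lost in 6 of 12 other settings and without the alpha-factor array at 10, 15, 20, 40, 60, 70, 90, 100, 120, 130 or 150 min.

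The early term up to 20 min differed between the courses for 3 of the 10 genes, each lower in the alpha-factor course, against 5.93% of all genes lower. STE12 had a difference of -1.29 ± 0.38, KAR4 of -1.10 ± 0.34 and STE5 of -0.58 ± 0.18 (SE; alpha-factor minus the mean of the cdc28 cultures; limma adjusted p = 0.0201, 0.0291 and 0.0291). With 0 min alone, the arrest itself, the sign turned for KAR4, at 0.59, and for STE12, at 0.078 (adjusted p = 0.638 and 0.967). All 3 calls were also lost with quantile normalization, with the shared array number as a random block, with a linear trend and with 10 min or before as early, and the KAR4 call with a period 10% shorter. Without the alpha-factor 20 min array 0 of 10 genes passed. Without the culture B 0 min array STE12 alone passed, and without the alpha-factor 0 min array 6 passed. The KAR4 call was also lost without the alpha-factor array at 10 or 15 min or the culture E array at 20 min, and the STE5 call without the culture E array at 10 min. In culture B the STE12 early call was lost without the array at 0, 15 or 135 min.

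The calls among the other lists in this difference were all higher in the alpha-factor course. Of 13 mating genes 5 were higher in the alpha-factor course and 0 lower, against 8.09% of all genes higher, with differences of 4.50 for FIG1, 2.30 for PRM1 and 2.26 for PRM2. Of 18 other signalling genes 5 were higher and 0 lower, among them AFR1 at 2.26, ASG7 at 1.61 and DIG2, a second repressor of Ste12, at 1.22. In the early term of the alpha-factor course alone, 7 of 13 mating genes were higher, against 3.07% of all genes, led by FIG1 (4.45), AGA1 (2.49) and PRM2 (2.49). There 5 of 18 signalling genes were higher, led by MFA1 (2.28), AFR1 (1.98) and ASG7 (1.84). The 1 lower was FAR1 (-0.86), whose product holds the cycle in G1 under pheromone. FIG1, PRM2, AFR1 and ASG7 had values on fewer than 80% of the alpha-factor arrays, so their early terms and differences rest on fewer arrays. With 0 min alone, where FIG1 was not tested, AGA1 (6.14) and FIG2 (5.15) led the mating genes of the alpha-factor course.

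In culture B the early term was higher for 1 of 18 signalling genes, MFA1 (2.68), and for 1 of 13 mating genes, AGA2 (1.55), against the 6.51% of all genes given above. In culture E it was higher for the signalling genes MFA1 (2.64), MFA2 (2.01) and PTP3 (0.39) and for the mating gene PRM3 (1.33), and lower for CIK1 (-1.23), 3 of 18 and 1 of 13 higher against 15.2% of all genes. DIG1 had an early difference of -0.40 between the courses that did not pass (limma adjusted p = 0.210).

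**Figure D5:**
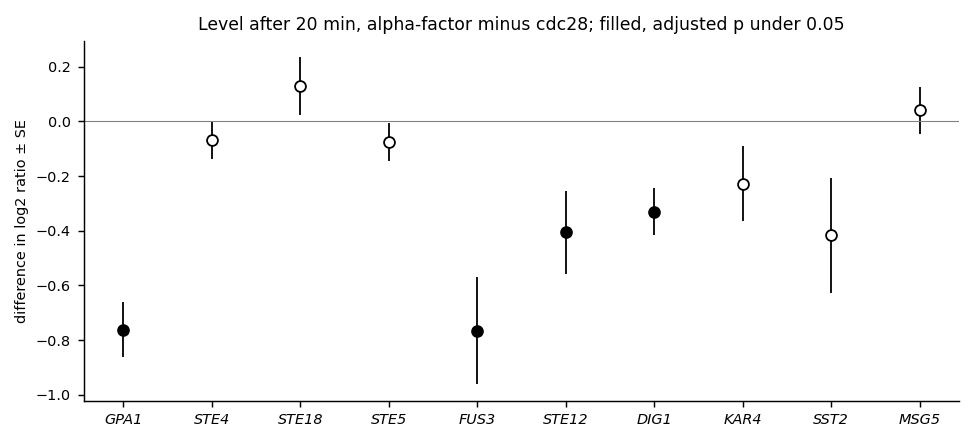
Difference in level after 20 min (vertical axis, log2 ratio in the alpha-factor course minus the mean of the cdc28 cultures, ± SE, from the joint fit over 49 arrays) for the 10 genes (horizontal axis); filled symbols passed the test. GPA1, FUS3, STE12 and DIG1 are filled and lie below 0.

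After 20 min, relative to the mid-log level of its own strain, 4 of the 10 genes were lower in the alpha-factor course and 0 higher, against 22.1% of all genes lower. GPA1 was -0.84 in the alpha-factor course, against -0.02 in culture B and -0.15 in culture E, a difference of -0.76 ± 0.10 (SE; limma adjusted p = 1.75e-07). FUS3 was -0.75, against 0.06 and -0.04, a difference of -0.77 ± 0.20 (adjusted p = 0.00189). As for the early terms, the p-values of the later level measure the scatter of arrays within courses and not the spread between cultures.

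DIG1 was -0.26 in the alpha-factor course, against 0.12 in culture B and 0.02 in culture E, a difference of -0.33 ± 0.09 (limma adjusted p = 0.00202). STE12 was -0.36, against -0.23 and 0.32, a difference of -0.41 ± 0.15 (adjusted p = 0.0273) in which culture B lies nearer the alpha-factor course than culture E does. The call on STE12 was lost without the alpha-factor array at 30, 50 or 60 min. The median difference of the 10 genes was -0.28, against -0.01 over all genes, and 43.0% of all genes passed in one direction or the other. Of the other signalling genes 3 of 18 were higher and 2 lower in this later level, and of the mating genes 2 of 13 were higher and 0 lower. Over all genes 21.0% were higher and 22.1% lower, so the counts of both lists lie below these shares.

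SST2 was mostly below its mid-log level after the first 20 min. Its value was below 0 on 13 of 13 alpha-factor arrays after 20 min, with a median of -0.97, against 13 of 14 arrays of culture B (median -0.89) and 11 of 13 of culture E (median -0.73). The difference of -0.42 ± 0.21 did not pass (limma adjusted p = 0.108). FUS3 and STE12 were below 0 on 13 of 13 alpha-factor arrays as well. FUS3 in culture B had 1.67 on the 135 min array and -1.34 at 180 min, each far from its neighbours, and on the same 135 min array KAR4 and STE12 had their lowest values of the culture, -1.30 and -1.05.

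STE4, STE18, STE5 and MSG5 had later levels that did not pass. STE4 kept between -0.45 and 0.03 on alpha-factor arrays after 20 min, against -0.45 to 0.13 in culture B and -0.41 to 0.03 in culture E. The culture B low was on its 135 min array, and the next lowest STE4 value there after 20 min was -0.37 at 60 min. STE5 was 0.02 in culture E after 20 min, against -0.31 in culture B, and -0.22 in the alpha-factor course lies between them.

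The 10 genes differed in how far their patterns resembled each other. Over the 45 pairs, the correlation across up to 49 arrays had a median of 0.22, with a highest value of 0.85, between SST2 and FUS3, and a lowest of -0.47, between STE4 and STE18. Within courses the SST2 and FUS3 correlation was 0.92 in the alpha-factor course, 0.66 in culture B and 0.91 in culture E. In culture E, FUS3 was below both neighbours in time at 20, 50, 80, 110 and 140 min, the run numbered 33 to 36. SST2 was below both of its neighbours at 20, 80, 110 and 140 min. How far this run shaped the culture E correlation was not tested. The STE4 and STE18 correlation was -0.31 in the alpha-factor course and -0.86 in culture E but 0.60 in culture B. In culture E the 0 min array held both the lowest STE4 value, -1.01, and the highest STE18 value, 1.56. The arrays share courses and cultures, so these values describe the courses and carry no test. Among the other genes with a symbol, those most like GPA1 were GYP8 (r = 0.90, 48 arrays), MSA1 (0.82) and HST4 (0.78). Probes without a symbol were left out of these lists. Those most like SST2 were YDR249C (r = 0.85, 45 arrays), the fusion gene FUS1 (0.85, 47 arrays) and AFB1 (0.80), and YDR249C and AFB1 also led the list of FUS3, at 0.84 and 0.79.

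DIG1 was most like the histone deacetylase gene HDA1 (r = 0.76), the a-factor exporter gene STE6 (0.74) and MSA1 (0.73), so MSA1 stands near the head of the lists of both GPA1 and DIG1. STE12 was most like CLG1 (r = 0.86), ARB1 (0.85) and FCY2 (0.85), and KAR4 like CHA1 (0.79), MCH5 (0.77) and POR1 (0.76), none of them on the lists of mating genes used here. STE18 was most like YER079W (0.80), STE5 like GYP6 (0.80), STE4 like STO1 (0.74) and MSG5 like ORC5 (0.65).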

How the data were processed

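RNA was hybridised on 49 dual-colour oligonucleotide arrays. Per the labels, synchronized cells carried Cy5 and mid-log cells Cy3. The deposited values are taken as log2 ratios, but their log base and direction are not stated; the direction follows the dyes. The sources used here do not state the scanner, background correction, spot filter or normalization.

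Of 6258 probes, 5570 had 1 gene symbol in the platform annotation and 688 none. Probes of 29 genes were averaged, and locus tags came from RefSeq. Each array was centred on its median. limma 3.58.1 in R 4.3.3 was fitted to genes measured on 80% or more of a fit's arrays, with two-sided tests, Benjamini-Hochberg adjustment over all genes and a threshold of 0.05. Periods from 40 to 160 min were tried every 1 min, and the one kept best fitted lists of G1/S, histone, G2/M and M/G1 genes. The fit at shared times had 5 residual and 4.21 prior degrees of freedom. Scripts were tested on simulated data.

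The members and lists were chosen with earlier results of these data known. Named genes were all 10 members, the 3 most like each (at least 40 arrays) and the 3 largest called genes each way of the other lists. The sample titles give the culture, B or E, of each cdc28 array, so cultures pair the cdc28 arrays across times. The correlation of the difference between B and E across 10 pairs of times ran from -0.07 to 0.87, with a median of 0.55. The planned promoter motif search was not run, because no sequence was used here.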

Additional observations from a re-analysis of the deposited data

Results flagged for a closer look

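The early term, the level up to 20 min after release over the later level, differed between the alpha-factor and cdc28 courses for STE12, KAR4 and STE5. The interaction contrast was -1.29 ± 0.38 for STE12, -1.10 ± 0.34 for KAR4 and -0.58 ± 0.18 for STE5 (SE; limma adjusted p = 0.0201, 0.0291 and 0.0291). With 0 min alone as the early array the sign turned for KAR4 and STE12, at 0.59 and 0.078, and no call remained. The STE12 call was lost in 5 of 13 other settings, KAR4 in 6 of 12 and STE5 in 5 of 12, with adjusted p up to 0.967, 0.672 and 0.576. These p-values measure the scatter of arrays within courses and not the spread between cultures. Strain, arrest, temperature and culture differ together between these courses and cannot be told apart. No group of samples had 4 or more replicates, so single outlying samples were not tested for.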

How the results depend on the processing

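Over all alternatives, 3222 values of the 10 genes kept direction and side of the threshold, and 112 that passed in neither fit changed sign. A further 44 passed only under the alternative, 86 no longer passed and 3 called values reversed. With 0 min alone as the early term, chosen after seeing the data, the reversed values were DIG1 in the alpha-factor course, 0.30, and the difference for KAR4, 0.59, and STE12, 0.078 (limma adjusted p = 0.629, 0.638 and 0.967). Under that setting 4 genes passed in the alpha-factor course, against 6.51% of all genes, and 1 in culture B, against 1.07%. In culture E 2 passed, against 28.7%, and in the difference 0, against 5.63%. In the level after 20 min 7 passed, against 51% of all genes. With 10 min or before as early, 0 passed in the alpha-factor course and 1 in culture B, against 4.06% and 1.3% of all genes. In culture E 1 passed (STE4 in place of KAR4), against 20.5%, and in the difference 0, against 4.53%. Quantile normalization left 0 genes at 30 min and 0 in the alpha-factor early term, against 0.752% and 5.84% of all genes. It left 1 in the early term of culture B and 0 in the difference, against 3.53% and 5.27%. The shared array number as a random block left 0, 1 and 0 in these early terms, against 2.13%, 4.78% and 5.11%. A linear trend left 0 in the alpha-factor course, 0 in culture E and 0 in the difference, against 0.418%, 5.47% and 1.93%. Genes with values on every array gave 1 in culture B (STE12), 0 in culture E and 1 in the difference (STE12). The shares of all genes there were 14.3%, 32.3% and 15.8%. KAR4 and STE5 each lack a value on at least 1 array, so that filter left them untested. Values as deposited gave 2 in culture E. A period 10% longer gave 0 in the alpha-factor early term and 2 in culture E. In the periodic test an early term in place of the trend gave 1 gene in culture B and 0 in culture E, and a period 10% shorter, or that of culture B, gave 0 in culture E. The run of array numbers in culture E as covariate, also chosen after seeing the data, gave 2 in its early term. That stood against 33% of all genes, and no other count changed. The array letter as covariate gave 4 genes at 30 min, against 10.2% of all genes. With the culture as replicate block, 3 genes passed at 30 min, with GPA1 added (limma adjusted p = 0.0394), against 7.34% of all genes. No other call changed. At 0 min 0 passed, against 13.9%, with 2 at an unadjusted p under 0.05. Leaving out 1 array at a time gave 0 to 1 genes at 0 min (SST2 without culture B), 0 to 0 at 30 min, 0 to 1 in the cdc28 change (STE18 without the 0 min array of culture B), 3 to 5 periodic genes in the alpha-factor course, 2 to 3 in culture B and 0 to 1 in culture E. For the early term it gave 0 to 1 in the alpha-factor course, 1 to 3 in culture B, 1 to 3 in culture E and 0 to 6 in the difference, and 3 to 5 for the level after 20 min. The shares over all genes are not given for the fits with 1 array left out. Apart from the genes that the filter on values left untested, the cause of the changes in these counts was not tested.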
